A study of Mus musculus with 33 samples.

Results

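Interferon γ (IFN-γ) response and antigen processing genes were followed over 11 groups of mouse immune cells. The set had 37 members, named by symbol, and each of the 37 was found once among the 31054 gene rows of the count tables. The members fell into 7 subfamilies: 7 receptor and signalling genes, 6 guanylate-binding proteins (GBPs), 7 immunity-related GTPases (IRGs), 5 genes of the immunoproteasome and its PA28 activator, 3 peptide loading genes, 4 MHC class I genes and 5 chemokine and other target genes. All 37 entered the tests, which covered 25347 genes.

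The libraries were bulk RNA-Seq of sorted cells, with 3 for each group. All mice were DEREG mice, a C57BL/6 line in which the Foxp3 promoter drives a diphtheria toxin receptor fused to EGFP, so that GFP marks regulatory T cells (Tregs). Tolerant mice carried 4000 islet equivalents of porcine neonatal islet cell clusters under the kidney capsule and had received MR-1, an antibody to CD154, at 500 μg per mouse and CTLA4-Fc at 500 μg per mouse. Their cells were taken at day 100 after transplantation. Naive mice had neither graft nor treatment. The Treg groups were GFP+ Tregs of naive spleen (SP/naive), CD127-/lo and CD127hi Tregs of tolerant spleen (SP/CD127-/lo and SP/CD127hi), Tregs recovered from the graft, and naive, CD127-/lo and CD127hi Tregs of the kidney draining lymph node (DLN). The other groups were CD4+GFP- cells and CD45+CD4- cells of naive and of tolerant spleen, the last taken from spleen depleted of CD4+ cells with beads. The tolerant mice came from more than 1 experiment, each library is described as a pool of several mice, and no label ties a library to its mice. The naive donors stated for a tissue are no more than the libraries of a group, so libraries of a naive group may share animals. The p-values therefore measure the spread between libraries of a group, estimated in 1 fit of all 33 libraries. That spread may be in part technical and need not be that of the groups compared.

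IFN-γ binds a receptor built of Ifngr1 and Ifngr2 chains, which signals through JAK kinases. Promoters of responsive genes carry GAS elements or interferon-stimulated response elements (ISREs), and IRF1 binds the latter. Among the induced genes are GTPases that attack vacuoles of intracellular pathogens (GBPs and IRGs), and the machinery that supplies MHC class I. In that machinery immunoproteasome subunits replace those of the constitutive proteasome and PA28 opens it. The TAP transporter then moves peptides into the endoplasmic reticulum, tapasin assists their loading, and a heavy chain with β2-microglobulin presents them. In Tregs, IFN-γ signalling is known both for a Th1-like programme and for fragile suppressive function.

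The labels of the sorted cells were checked first. Levels are given in CPM, the counts of a gene per 1000000 counts of its library after TMM scaling. Foxp3 had 166 to 672 CPM in the 21 Treg libraries and at most 8.2 CPM in the 12 others. EGFP was at 0 in all 6 CD4+GFP- libraries and at 1.64 to 149 CPM in the Treg libraries. In each CD45+CD4- group at least 1 library had counts of EGFP. Il7r, which encodes CD127, was higher in SP/CD127hi than in SP/CD127-/lo Tregs (1172 ± 80 and 311 ± 45.6 CPM, SD, n = 3, adjusted p = 0.00163). In DLN it was 596 ± 106 and 522 ± 259 CPM and the values of CD127hi and CD127-/lo Tregs overlapped. Totals on genes were 2550698 to 4615283 in the 24 spleen and graft libraries, sequenced on a NextSeq 500, and 844039 to 1935323 in the 9 DLN libraries, sequenced on a MiSeq. Tissue and sequencer therefore cannot be told apart between DLN and the rest. A count of 3 corresponded to 0.65 to 1.18 CPM in the deeper and 1.55 to 3.55 CPM in the DLN libraries. The library labelled DLN/naive replicate 3 had 2 counts of Xist, 224 of Ddx3y and 319 of Eif2s3y, whereas replicates 1 and 2 had 570 and 655 counts of Xist. The study describes naive lymph node donors as female and tolerant recipients and naive spleen donors as male. The DLN Treg libraries of tolerant mice had 0 to 3 counts of Xist and 157 to 619 of Ddx3y. Sex and tolerance therefore cannot be told apart between tolerant DLN and naive replicates 1 and 2, and the main results against DLN/naive Tregs are given with and without replicate 3.

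Promoters of 4 called members, each of another subfamily, are shown because many members carry IFN-responsive motifs at their start sites. RefSeq windows on GRCm38.p6, from 250 bases before to 50 bases after a start, were at hand for 30 of the 37 members. The ISRE core, searched on either strand as GAAA, any 2 bases and GAAA, was in the windows of 14 of 30 members (46.7%) and of 3.99% of 27025 genes. The GAS letters TTCNNNGAA, which read the same on both strands, were in 8 of 30 (26.7%) and in 9.55% of genes. Both motifs can share bases with each other. All 4 GBPs with a window and 5 of 6 IRGs had an ISRE core, against 0 of 2 peptide loading genes. The bases before the start of 4 members follow, 5′ to 3′ on the gene's strand, with motif matches in capitals. Ifngr1 lies at chr10:19591699-19591948 (plus strand), and no match was in these letters. Gbp3 lies at chr3:142559794-142560043 (plus strand), with 2 overlapping ISRE cores read on the opposite strand, while the window at its other RefSeq start, chr3:142560106-142560355, had no match. Tgtp2 lies at chr11:49064213-49064462 (minus strand), with a GAS followed by an ISRE core. B2m lies at chr2:122147437-122147686 (plus strand), with 1 ISRE core. A match is a description of letters and not evidence of binding.
Ifngr1: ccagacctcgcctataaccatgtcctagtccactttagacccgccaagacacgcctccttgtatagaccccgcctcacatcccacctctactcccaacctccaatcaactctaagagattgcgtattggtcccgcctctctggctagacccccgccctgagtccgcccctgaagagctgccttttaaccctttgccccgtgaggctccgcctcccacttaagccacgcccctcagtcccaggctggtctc
Gbp3: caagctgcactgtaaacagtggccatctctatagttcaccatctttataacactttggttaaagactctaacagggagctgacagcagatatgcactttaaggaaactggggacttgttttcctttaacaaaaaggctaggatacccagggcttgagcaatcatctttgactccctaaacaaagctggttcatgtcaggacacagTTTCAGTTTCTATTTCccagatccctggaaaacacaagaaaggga
Tgtp2: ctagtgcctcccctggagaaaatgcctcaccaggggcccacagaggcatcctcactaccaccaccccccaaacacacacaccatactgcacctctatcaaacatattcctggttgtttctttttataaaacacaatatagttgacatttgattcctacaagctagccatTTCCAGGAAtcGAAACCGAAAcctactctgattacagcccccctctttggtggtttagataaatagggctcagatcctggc
B2m: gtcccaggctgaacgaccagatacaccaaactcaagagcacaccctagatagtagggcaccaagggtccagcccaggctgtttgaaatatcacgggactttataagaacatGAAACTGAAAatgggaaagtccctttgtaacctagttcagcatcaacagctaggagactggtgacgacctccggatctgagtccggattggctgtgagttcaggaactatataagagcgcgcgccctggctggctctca

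Levels of the members spanned a wide range. Per kilobase of exon, and averaged over the 33 libraries, the level of B2m was 18029 CPM per kb, followed by H2-K1 with 1313, H2-D1 with 726, Psme2 with 477 and Psme1 with 206 CPM per kb. The lowest were Gbp5 with 2.25 and Cxcl9 with 0.739 CPM per kb, and Cxcl9 had a count in only 12 of 33 libraries. Among the 8 spleen and graft groups, the highest mean CPM fell in SP/CD127hi Tregs for 11 members, in SP/CD127-/lo Tregs for 9 and in graft Tregs for 9. Tolerant CD45+CD4- cells had the lowest mean for 14 members. Over these 8 groups, edgeR's quasi-likelihood test called 15 members as different somewhere (13.4% of all genes tested were called). Over the 4 Treg groups of spleen and graft it called B2m and Ifngr1 (1.57% of genes).

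**Figure D1:**
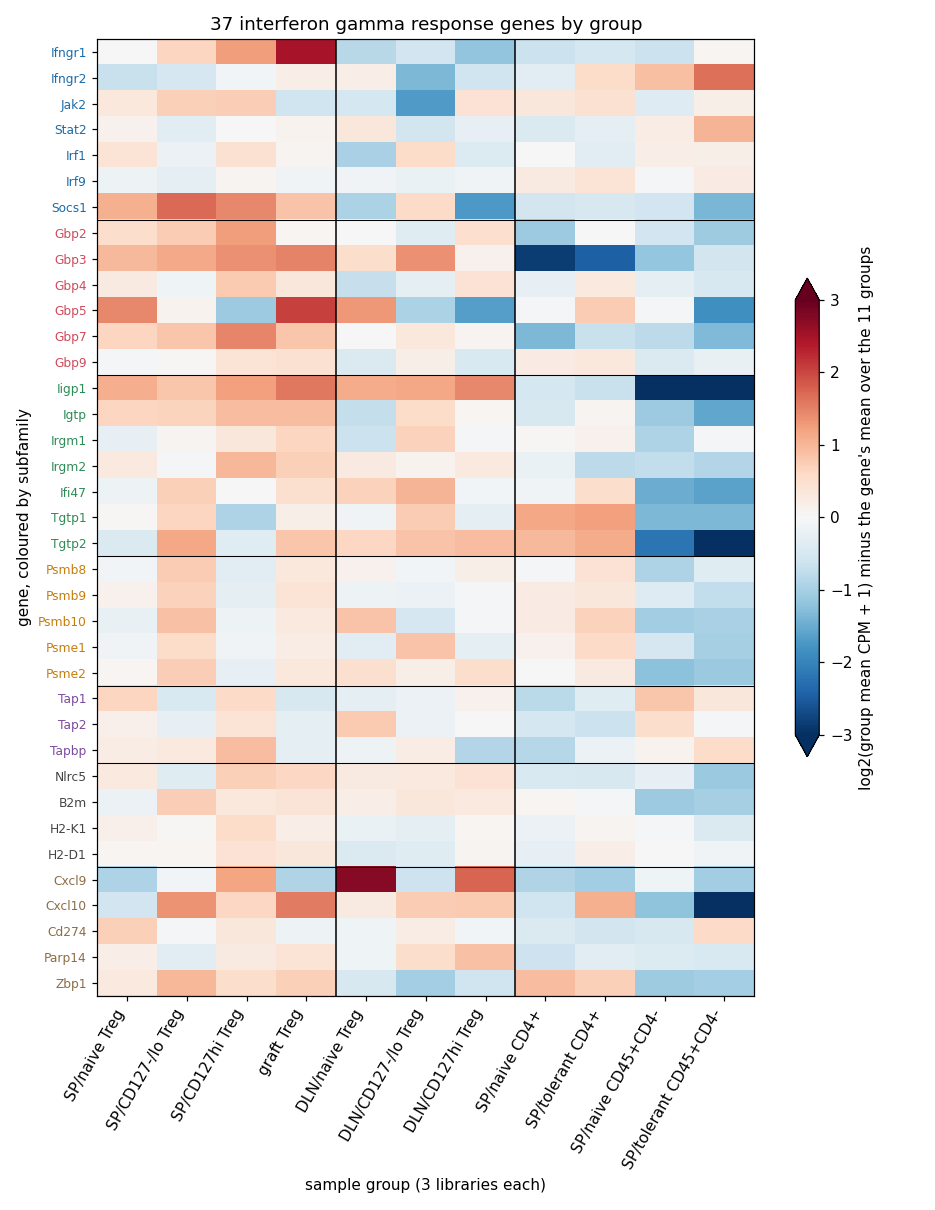
Heatmap of the 37 members (rows, gene names coloured by subfamily) over the 11 groups (columns). Colour gives log2(mean CPM + 1) of 3 libraries minus the mean of that gene over the 11 groups, from blue (lower) to red (higher). Ifngr1 is reddest in graft Tregs, while Gbp3 in the CD4+ groups and Tgtp2, Iigp1 and Cxcl10 in the CD45+CD4- groups are among the bluest.

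Pairwise, few members passed an adjusted p of 0.05. One was called in each of graft against SP/naive Tregs (Ifngr1, where 0.13% of all genes were called), SP/CD127-/lo against SP/naive Tregs (B2m, 0.071%) and SP/naive Tregs against naive CD4+ cells (Gbp3, 0.264%). In naive CD4+ against naive CD45+CD4- cells 3 were called (B2m, Tgtp2 and Iigp1, 1.04%). The comparisons within tolerant spleen were added after the data had been seen. There, 7 were called in CD4+ against CD45+CD4- cells (1.53%), 2 in SP/CD127-/lo Tregs against CD4+ cells (0.284%) and 1 in SP/CD127hi Tregs against CD4+ cells (0.324%). Without tolerant CD4+ replicate 1, 4 members were called in the first of these, and without naive CD45+CD4- replicate 3, 5 were called in naive CD4+ against CD45+CD4- cells. The shares of all genes called in these fits are not given. No member was called in graft against SP/CD127hi Tregs (0.103% of genes) or SP/CD127-/lo Tregs (0.0829%), between CD127hi and CD127-/lo Tregs of spleen (0.0907%) or DLN (0.418%), or in SP/CD127hi against SP/naive Tregs (0.0197%). Nor was any called in DLN/CD127hi (0.951%) or DLN/CD127-/lo (0.355%) against DLN/naive Tregs, or in tolerant against naive CD4+ (0.107%) or CD45+CD4- cells (0.0355%). DESeq2 called 0 to 2 members in these 9 comparisons. At an unadjusted p under 0.05, graft Tregs had 5 members against SP/CD127hi (8.73% of genes) and 4 against SP/CD127-/lo Tregs (7.66%). SP/CD127hi Tregs had 8 against SP/CD127-/lo (6.74%) and 4 against SP/naive Tregs (5.09%). DLN/CD127hi Tregs had 4 against DLN/CD127-/lo (8.75%) and 4 against DLN/naive Tregs (10.6%), and DLN/CD127-/lo against DLN/naive Tregs had 6 (8.79%). Tolerant against naive cells had 0 in CD4+ (7.01%) and 4 in CD45+CD4- cells (4.46%). As a share of the 37 members these counts lay above the share of all genes in 8 of the 9 comparisons, by little in DLN/CD127hi against DLN/naive Tregs, and no test of this was made. Comparisons that have a group in common share its libraries.

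**Figure D2:**
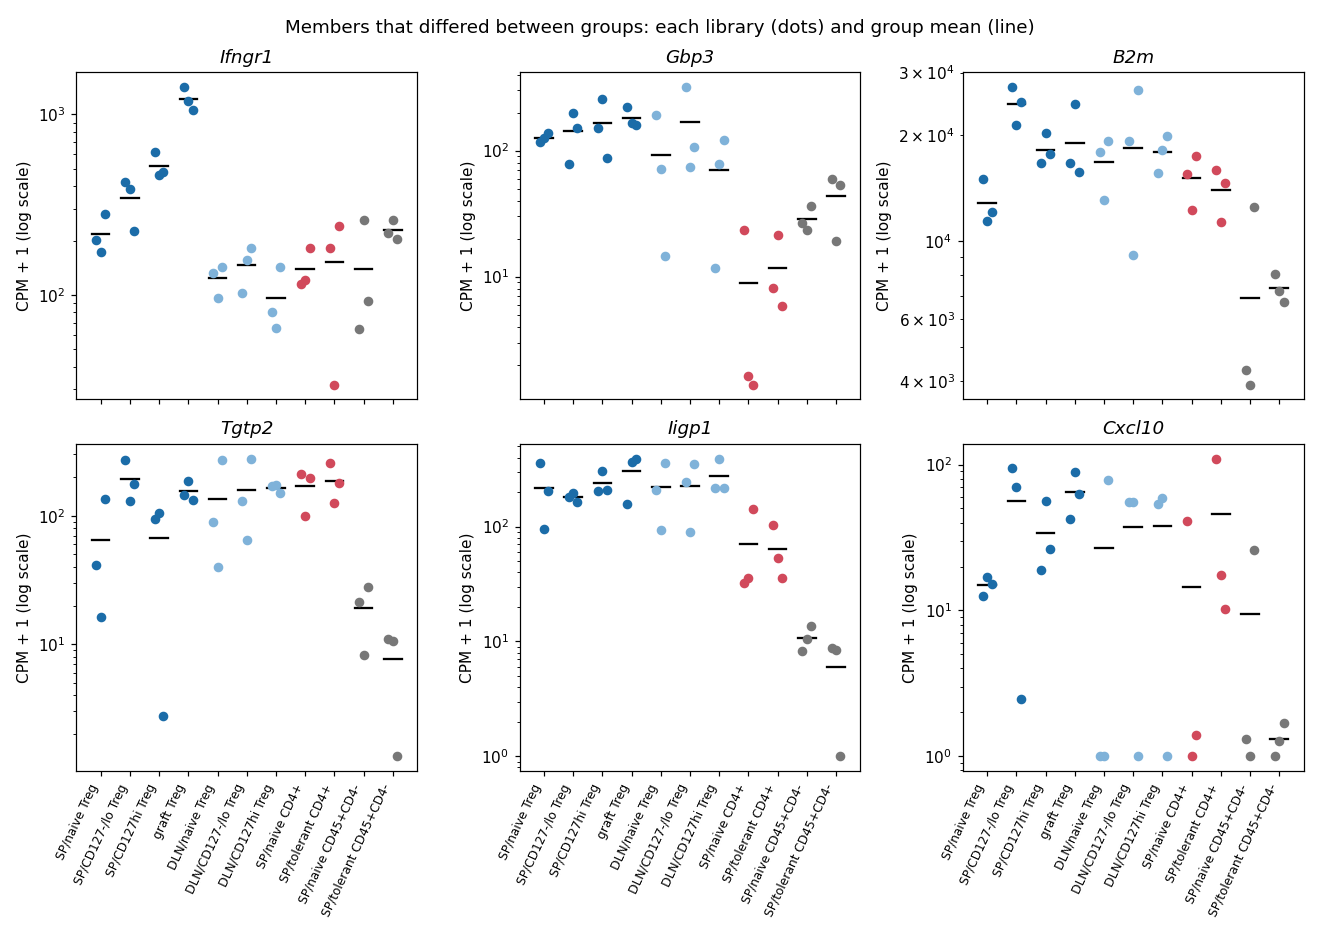
CPM + 1 (log scale) of 6 members called in at least 1 pairwise comparison, in each library (dots) of the 11 groups, with lines at group means. The 3 graft Treg libraries have the highest Ifngr1 of all, and both CD4+ groups lie below every spleen and graft Treg library in Gbp3.

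Among the receptor and signalling genes, Ifngr1, the ligand-binding chain, stood out in graft Tregs. The 3 graft libraries had 1422, 1182 and 1056 CPM of Ifngr1. SP/naive Tregs had 200, 171 and 280 CPM, SP/CD127-/lo Tregs 424, 383 and 224 CPM, and SP/CD127hi Tregs 615, 463 and 481 CPM. Every graft library lay above every spleen Treg library, and every SP/CD127hi library lay above those of SP/CD127-/lo and SP/naive Tregs. The mean was 1220 ± 186 CPM in graft Tregs (SD, n = 3) and 217 ± 56.3 CPM in the naive ones. Graft Tregs were 5.63-fold higher (log2 fold change 2.49 ± 0.51, SE, edgeR adjusted p = 0.00317). Adjusted p was 0.0813 with the likelihood ratio test and 0.0741 without SP/naive replicate 2. Against SP/CD127-/lo and SP/CD127hi Tregs the log2 differences of Ifngr1 were 1.83 ± 0.50 and 1.23 ± 0.49, with adjusted p of 0.134 and 0.328. The 9 DLN Treg libraries had 64.6 to 181 CPM of Ifngr1, on the other sequencer.

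Markers of other cells were looked at beside this difference. Summed CPM of 5 kidney markers were 16.1 to 889 in graft and 0.253 to 3.04 in SP/naive Tregs, led by Kap, an androgen-regulated kidney gene, with 338 ± 478 CPM in graft Tregs and 0 in the naive ones. In 1 graft library all 8 macrophage markers were at 0, and the range of their sum was 0 to 472 CPM in graft and 27 to 123 CPM in SP/naive Tregs. The part of kidney and macrophage RNA in the difference was not tested. In these bulk libraries, fewer cells of a type and less RNA per cell cannot be told apart.

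Ifngr2, the second receptor chain, was near the limit of detection in several Treg libraries and ranged from 0 to 53.9 CPM over the spleen and graft Tregs. Its highest mean was in tolerant CD45+CD4- cells (83.6 ± 10 CPM), where all 3 libraries lay above those of naive CD45+CD4- cells (49 ± 16.6 CPM), without passing the test (adjusted p = 1). Jak2, a kinase of the receptor complex, was at 135, 60.4 and 35.5 CPM in graft and 204, 261 and 121 CPM in SP/CD127hi Tregs (log2 difference -1.34 ± 0.64, adjusted p = 0.511). In DLN it was at 156 ± 54.8 CPM in CD127hi and 35 ± 23.6 CPM in CD127-/lo Tregs, with no overlap and an adjusted p of 0.126. Socs1, the feedback inhibitor of JAK kinases, had 7.44 ± 2.77 CPM in DLN/CD127hi and 40.6 ± 34.9 CPM in DLN/CD127-/lo Tregs (adjusted p = 0.488). Non-overlap of this kind, higher or lower, was found for 2.26% and 3.11% of all genes between these DLN groups. Irf1, Irf9 and Stat2, the transcription factors, passed no pairwise test.

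B2m, the light chain of MHC class I, was the most abundant member and differed in the most comparisons. SP/CD127-/lo Tregs had 27352, 21322 and 24784 CPM and SP/naive Tregs 15016, 11377 and 12085 CPM. All libraries of the former lay above those of the latter. The means were 24486 ± 3026 and 12826 ± 1929 CPM, a 1.91-fold difference (log2 0.93 ± 0.15, adjusted p = 1.12e-05). B2m has 860 bases of exon, and the genes of its length bin, the shortest of 10, had a median log2 difference of 0.55 here, 0.38 below that of B2m. The share of read pairs on genes was 53.9 to 63% in SP/CD127-/lo and 38.4 to 52.8% in SP/naive Tregs, and the part of length and library quality in this call was not tested. SP/CD127hi Tregs lay between them with 16668, 20166 and 17583 CPM, and graft Tregs had 16664, 24454 and 15667 CPM. Neither group differed from SP/naive Tregs by the test (adjusted p = 0.628 and 0.0798), although their libraries did not overlap with those of SP/naive Tregs (3.58% and 3% of all genes were higher in this way). B2m was called in both comparisons without a filter on low counts or without SP/naive replicate 1. In graft Tregs it was also called with RLE scaling and without graft replicate 1 or 3. In naive spleen, B2m was 15462, 12257 and 17448 CPM in CD4+ cells and 4318, 3917 and 12459 CPM in CD45+CD4- cells, where the groups overlapped. In tolerant spleen it was 15843, 11298 and 14570 CPM in CD4+ and 8077, 7224 and 6732 CPM in CD45+CD4- cells, without overlap. The log2 differences were 1.13 ± 0.15 (adjusted p = 7.46e-10) and 0.92 ± 0.15 (adjusted p = 8.07e-07). The CD45+CD4- replicate with 12459 CPM of B2m stood apart from the other two of its group.

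The B2m calls depended on the test, while the direction did not. For SP/CD127-/lo against SP/naive Tregs adjusted p was 0.827 with the likelihood ratio test, 0.432 with DESeq2, 0.892 with the stricter count filter and 0.197 when only the compared groups were fitted, with a log2 difference of 0.85 to 1.06 over the 13 alternatives. For the naive CD4+ and CD45+CD4- cells it was 0.389, 0.0623, 0.021 and 0.142, and for the tolerant ones 0.469, 0.203, 0.0713 and 0.00321, in the same order. Their log2 differences were 0.81 to 1.81 in naive, the highest without naive CD45+CD4- replicate 3, and at least 0.80 in tolerant spleen. B2m was also higher in SP/CD127-/lo Tregs than in tolerant CD4+ cells (log2 0.82 ± 0.15, adjusted p = 9.53e-05), and this call was lost under the same 4 settings (0.854, 0.257, 0.275 and 0.0744), with log2 differences of 0.71 to 0.92.

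The classical heavy chains spanned narrower ranges. H2-K1 ranged from 2608 to 6328 CPM and H2-D1 from 987 to 3017 CPM over all 33 libraries. H2-K1 was at 5852, 4451 and 6328 CPM in SP/CD127hi and 3807, 3981 and 3940 CPM in SP/CD127-/lo Tregs, without overlap (log2 0.50 ± 0.19, adjusted p = 0.494). In tolerant spleen it was 4041 ± 233 CPM in CD4+ and 2812 ± 187 CPM in CD45+CD4- cells (adjusted p = 0.152). In naive spleen the corresponding levels were 3378 ± 387 and 3733 ± 940 CPM and overlapped. Nlrc5, the transactivator of class I genes, had 633 ± 164 CPM in SP/CD127hi, 594 ± 165 CPM in graft, 474 ± 31.6 CPM in SP/naive and 301 ± 47.8 CPM in SP/CD127-/lo Tregs. Thus among these Treg groups the one with the highest B2m had the lowest Nlrc5, although no pairwise test of Nlrc5 passed. Nlrc5 has 8493 bases of exon. In SP/CD127-/lo against SP/naive Tregs its log2 difference was -0.66, and the median of its length bin was -0.30. The part of length in this was not tested.

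Within the GBPs, Gbp3 was higher in spleen and graft Tregs than in Foxp3- CD4+ cells in every library. SP/naive Tregs had 116, 125 and 136 CPM, whereas naive CD4+ cells had 22.6, 0.633 and 0.392 CPM. The groups did not overlap, and the naive CD4+ replicate with 22.6 CPM stood apart from the other two. The means were 126 ± 10 and 7.89 ± 12.8 CPM, a 15.8-fold difference (log2 3.98 ± 0.86, adjusted p = 0.0043). Tolerant spleen showed the same order. SP/CD127-/lo Tregs had 76.8, 196 and 151 CPM, SP/CD127hi Tregs 149, 256 and 86.8 CPM, and tolerant CD4+ cells 7.07, 20.4 and 4.89 CPM. Both Treg groups lay above the CD4+ cells in every library, 13-fold (log2 3.70 ± 0.84, adjusted p = 0.00869) and 15.2-fold (log2 3.92 ± 0.85, adjusted p = 0.00471). Graft Tregs had 219, 164 and 158 CPM of Gbp3.

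These Gbp3 calls depended on single libraries. The naive call was lost without naive CD4+ replicate 2 (adjusted p = 0.0838), without replicate 3 (0.083), or with the stricter count filter (0.101). Without replicate 1, the library with 22.6 CPM, it was 1.35e-06 and the fitted log2 difference 7.77. The tolerant calls were lost without CD4+ replicate 1 (0.162 for SP/CD127-/lo and 0.0869 for SP/CD127hi Tregs), without CD4+ replicate 3 (0.168 and 0.105) and with the stricter filter (0.14 and 0.106). That for SP/CD127-/lo Tregs was also lost without their replicate 2 (0.0599) and with the likelihood ratio test (0.0639). CD45+CD4- cells had 25.4, 22.5 and 35.1 CPM of Gbp3 in naive and 58.6, 18.1 and 52.3 CPM in tolerant spleen. These were above most CD4+ libraries but did not pass the test (log2 of CD4+ over CD45+CD4- cells -1.80 ± 0.79 and -1.99 ± 0.79, adjusted p = 0.386 and 0.219). The DLN Tregs ranged widely in Gbp3, from 10.7 to 320 CPM, and so overlapped with the CD4+ cells. Some markers of other cells differed between these Tregs and CD4+ cells. The sum of 8 macrophage markers was 27 to 123 CPM in SP/naive Tregs and 2.35 to 4.12 CPM in naive CD4+ cells, and 8.3 to 302, 145 to 248 and 16.2 to 29.4 CPM in SP/CD127-/lo Tregs, SP/CD127hi Tregs and tolerant CD4+ cells. Of these, Lyz2 was called in all 3 comparisons. At an unadjusted p under 0.05, 3 of the 8 were higher and 1 was lower in SP/naive Tregs than in naive CD4+ cells. The B cell sum was 824 to 1303 CPM in SP/naive Tregs and 349 to 465 CPM in naive CD4+ cells, most of it Ighm, and of the 6 markers 1 was higher and 2 were lower in these Tregs at an unadjusted p under 0.05. Against tolerant CD4+ cells, Cd79b and Ighm were called higher in SP/CD127-/lo and Cd79b and Ms4a1 in SP/CD127hi Tregs. The red cell gene Hbb-bs was called higher in both, and Gzma in SP/CD127hi Tregs. At an unadjusted p under 0.05, 2 B cell markers were higher and 2 lower in SP/CD127-/lo Tregs, and 5 were higher in SP/CD127hi Tregs. At that threshold 3 of 6 CD8 T or NK cell markers were lower in SP/naive Tregs, and all 4 dendritic cell markers were lower in SP/CD127-/lo Tregs, than in the CD4+ cells of the same spleen. The part of such cells in the Gbp3 and other GBP differences was not tested.

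Other GBPs leaned the same way in naive spleen. Gbp7 was at 368, 276 and 243 CPM in SP/naive Tregs and 91.5, 59.2 and 68.2 CPM in naive CD4+ cells (log2 2.02 ± 0.56, adjusted p = 0.0935). Gbp2 was at 102 ± 7.89 and 33.1 ± 3.68 CPM (adjusted p = 0.72). Neither gene overlapped between these groups, where 5.35% of all genes were higher without overlap. The median log2 difference of the 6 GBPs was 1.60, beside -0.09 over all genes tested, with 5 of 6 higher and 37.3% of all genes higher. Gbp4, the GBP with the highest mean CPM, had 463, 425 and 517 CPM in SP/naive Tregs and 402, 165 and 425 CPM in naive CD4+ cells. It reached 719, 545 and 743 CPM in SP/CD127hi Tregs against 334, 418 and 309 CPM in SP/CD127-/lo Tregs, without overlap and with an adjusted p of 0.691. In SP/CD127hi Tregs Gbp5 had 5.09, 3.06 and 4.63 CPM and in graft Tregs 65, 45.8 and 25.6 CPM (adjusted p = 0.478), and it was called there with DESeq2 alone. Gbp4 and Gbp9 overlap each other and Gbp8 on the same strand, and 11.3% of the 75-base stretches of Gbp7 also occur in other genes.

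Of the 7 IRGs, 2 were called higher in CD4+ than in CD45+CD4- cells in naive and 3 in tolerant spleen. All 7 had a positive log2 difference in both, with medians of 1.39 in naive and 2.13 in tolerant spleen, beside 0.00 and -0.05 over all genes. The shares of all genes that were higher were 48.9% and 34.5%. The shares of all genes that were higher in CD4+ cells without overlap were 5.74% and 8.24%.

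Tgtp2 had 209, 98.2 and 197 CPM in naive CD4+ and 20.2, 7.17 and 27 CPM in naive CD45+CD4- cells. In tolerant spleen it had 255, 124 and 179 CPM in CD4+ and 9.94, 9.62 and 0.339 CPM in CD45+CD4- cells. Neither pair of groups overlapped. The differences were 9.25-fold in naive (log2 3.21 ± 0.76, adjusted p = 0.00663) and 27.7-fold in tolerant spleen (log2 4.79 ± 0.82, adjusted p = 5.47e-06). The tolerant call held in all 13 alternatives, while the naive one had an adjusted p of 0.0966 without naive CD45+CD4- replicate 2 and 0.0722 with the stricter filter. Tgtp2 shares 81.4% of its 75-base stretches with other genes, above all with Tgtp1, and only uniquely mapped reads were counted, so the split between the pair is uncertain. Tgtp1 itself had 88.8 ± 51.6 and 14.9 ± 6.72 CPM in naive and 93.8 ± 42.2 and 14.9 ± 10.6 CPM in tolerant CD4+ and CD45+CD4- cells (adjusted p = 0.3 and 0.209).

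Iigp1 followed the same order. Naive CD4+ cells had 31.5, 34.8 and 142 CPM and naive CD45+CD4- cells 7.33, 9.46 and 12.6 CPM (7.06-fold, log2 2.82 ± 0.65, adjusted p = 0.00433). Tolerant CD4+ cells had 103, 52.3 and 34.8 CPM and tolerant CD45+CD4- cells 7.73, 7.42 and 0 CPM (12.3-fold, log2 3.62 ± 0.68, adjusted p = 5.18e-05). The groups did not overlap in either. The tolerant call held in all 13 alternatives, and the naive one had a log2 difference of 1.76 and an adjusted p of 0.337 without CD4+ replicate 3 and 0.0985 when only the compared groups were fitted. Iigp1 had 354, 93.7 and 202 CPM in SP/naive Tregs and 157, 367 and 391 CPM in graft Tregs. SP/naive Tregs overlapped with naive CD4+ cells and did not differ from them by the test (log2 1.64 ± 0.62, adjusted p = 0.461). Graft Tregs were not compared with CD4+ cells.

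Ifi47 was the IRG with the highest mean CPM. It had 803, 339 and 622 CPM in tolerant CD4+ and 98.3, 212 and 93 CPM in tolerant CD45+CD4- cells (4.37-fold, log2 2.13 ± 0.46, adjusted p = 0.000925). In naive spleen it had 423, 208 and 511 CPM in CD4+ and 84, 191 and 162 CPM in CD45+CD4- cells (log2 1.39 ± 0.45, adjusted p = 0.138). The groups did not overlap in either. The tolerant call had an adjusted p of 0.0764 with the likelihood ratio test. Igtp was at 119 ± 28.5 and 77.4 ± 19 CPM in naive and at 177 ± 112 and 55.4 ± 24.5 CPM in tolerant CD4+ and CD45+CD4- cells (adjusted p = 0.742 and 0.111). Irgm1 and Irgm2 had log2 differences of 0.96 ± 0.58 and 0.56 ± 0.76 in naive and of 0.18 ± 0.57 and 0.08 ± 0.76 in tolerant spleen. The groups overlapped for Igtp, Irgm1 and Irgm2 in both spleens. Igtp and Irgm2 overlap on the same strand.

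**Figure D3:**
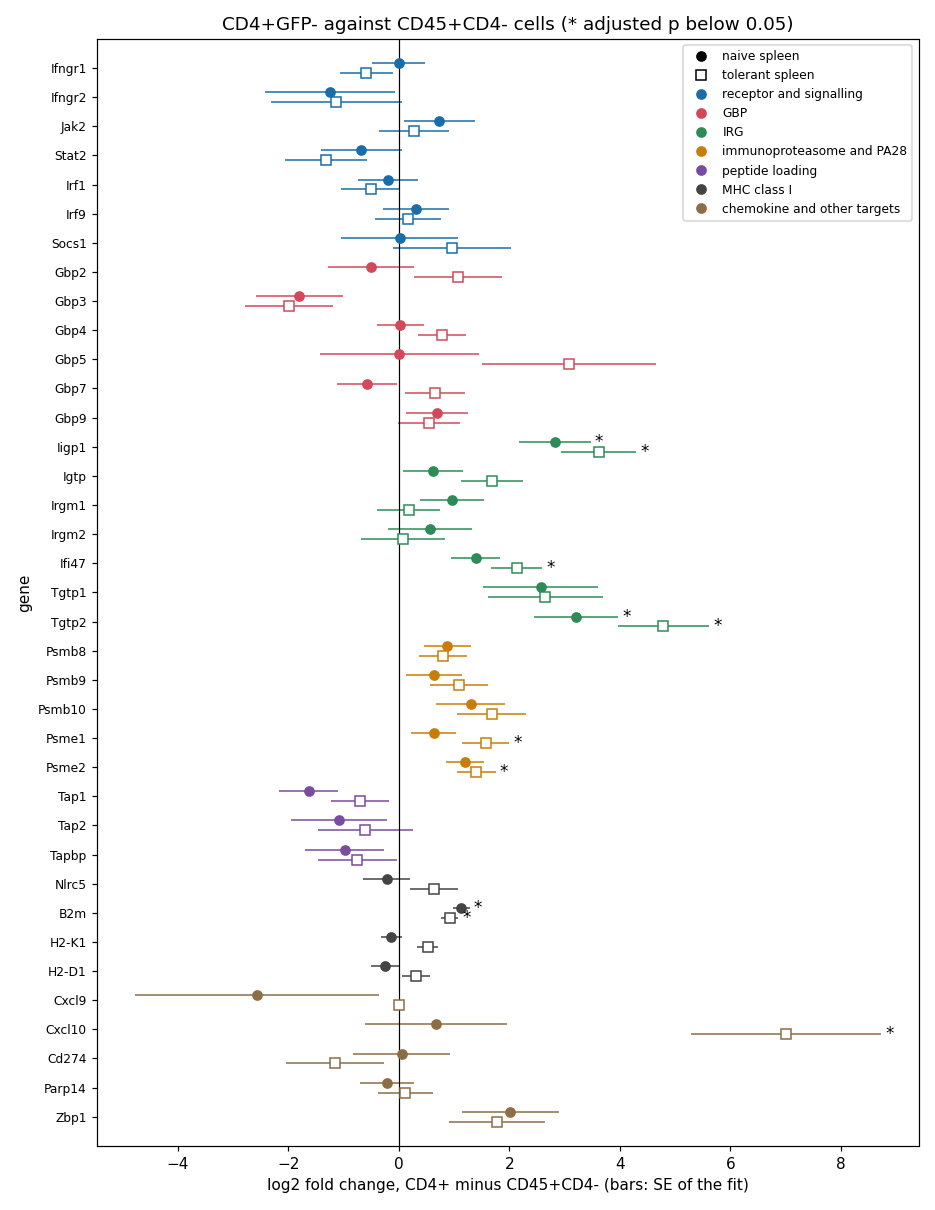
Log2 fold changes of CD4+ over CD45+CD4- cells (x axis, bars SE of the fit) for the 37 members (y axis, coloured by subfamily), in naive (filled circles) and tolerant spleen (open squares), with stars at an adjusted p under 0.05. IRG and immunoproteasome points lie right of 0 and the 3 peptide loading genes left of it in both spleens.

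The 5 genes of the immunoproteasome and PA28 were also higher in CD4+ cells in both spleens, with median log2 differences of 0.88 in naive and 1.40 in tolerant spleen. Psme2, a PA28 subunit and the highest of the 5, had 735, 822 and 747 CPM in naive CD4+ and 242, 198 and 562 CPM in naive CD45+CD4- cells (log2 1.20 ± 0.34, adjusted p = 0.0528). In tolerant spleen it had 1270, 609 and 951 CPM in CD4+ and 389, 375 and 307 CPM in CD45+CD4- cells. The difference was 2.64-fold and passed the test (log2 1.40 ± 0.35, adjusted p = 0.00794). Psme1, the other PA28 subunit, had 761, 546 and 606 CPM in tolerant CD4+ and 257, 228 and 161 CPM in tolerant CD45+CD4- cells (2.97-fold, log2 1.57 ± 0.42, adjusted p = 0.0207). In naive spleen Psme1 had 642, 377 and 384 CPM in CD4+ and 280, 201 and 425 CPM in CD45+CD4- cells, which overlapped (adjusted p = 0.689). With the likelihood ratio test, adjusted p was 0.219 for Psme2 and 0.158 for Psme1. The Psme2 call was lost without tolerant CD4+ replicate 1 (0.186) or tolerant CD45+CD4- replicate 3 (0.0933). The Psme1 call was lost in 5 of the 6 fits that left out 1 library (0.0565 to 0.172) and held without tolerant CD4+ replicate 2 (0.043). The catalytic subunits Psmb8, Psmb9 and Psmb10 had log2 differences between 0.64 and 1.68 in the 2 spleens and were not called. Psme2 shares 22.9% of its 75-base stretches with other genes, above all Psme2b.

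The 15 genes of the constitutive proteasome list had a median log2 difference of 1.09 in both spleens, with a lowest value of -1.32 in naive and -0.05 in tolerant spleen. Psma2 and Psma3, subunits of the α ring, were called higher in CD4+ cells in naive and in tolerant spleen. Psma3 was at 1237 ± 68.5 CPM in tolerant CD4+ and 469 ± 180 CPM in tolerant CD45+CD4- cells (adjusted p = 0.00204).

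Peptide loading genes ran the other way between these cells. Tap1, a subunit of the peptide transporter and the peptide loading gene with the highest mean CPM, had 154, 177 and 75.6 CPM in naive CD4+ and 566, 497 and 197 CPM in naive CD45+CD4- cells. The groups did not overlap (log2 -1.63 ± 0.53, adjusted p = 0.138). In tolerant spleen it had 187, 174 and 194 CPM in CD4+ and 357, 331 and 213 CPM in CD45+CD4- cells, again without overlap (log2 -0.70 ± 0.52, adjusted p = 0.703). All 3 of Tap1, Tap2 and tapasin (Tapbp) were lower in CD4+ cells, with medians of -1.09 and -0.70, but none was called. Of all genes, 7.13% and 10.8% were lower without overlap. Compared with naive CD4+ cells, SP/naive Tregs had more Tap1, at 250, 554 and 308 CPM (log2 1.45 ± 0.52, adjusted p = 0.429), and the median of the 3 genes was 1.10.

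Composition differed strongly between the CD4+ and CD45+CD4- libraries. The sum of 6 B cell markers was 349 to 663 CPM in the 6 CD4+ libraries, 5335 to 6067 CPM in naive and 9120 to 9932 CPM in tolerant CD45+CD4- libraries. The sum of 4 T cell markers was 3335 to 5460 CPM in CD4+ and 379 to 1761 CPM in CD45+CD4- libraries, and no marker of either list was at 0 in every library of these groups. The part of cell composition in the differences of IRG, proteasome and class I genes was not tested.

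The chemokine and other target genes were mostly low. Cxcl10, a ligand of CXCR3, had 109, 16.4 and 9.27 CPM in tolerant CD4+ and 0, 0.275 and 0.679 CPM in tolerant CD45+CD4- cells, and the groups did not overlap (adjusted p = 0.00727). The CD45+CD4- libraries held 3 counts in all against 581 in the CD4+ libraries, a ratio of 161 in pooled counts over pooled scaled library sizes (95% interval 54.8 to 782 from an exact binomial test, counting error only). Tolerant CD4+ replicate 1, the library with 109 CPM, held 479 of these counts. Without it the ratio was 43.9 (14.6 to 217) and adjusted p was 0.145, and without tolerant CD45+CD4- replicate 1 adjusted p was 0.0603. With the stricter filter adjusted p was 0.123. In naive CD4+ cells Cxcl10 had 40, 0 and 0.392 CPM and in naive CD45+CD4- cells 0.306, 0 and 25.1 CPM. Graft Tregs had 41.4, 88.6 and 62 CPM and SP/naive Tregs 11.6, 15.9 and 14.1 CPM, without overlap (log2 2.20 ± 1.32, adjusted p = 0.782). In DLN, libraries at 0 alternated with libraries at 52.6 to 76.9 CPM within each group. Cxcl9, also a CXCR3 ligand, did not exceed 37.6 CPM and was at 0 in 21 of 33 libraries.

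Cd274, which encodes PD-L1, had 91.4, 87.6 and 92.9 CPM in SP/naive Tregs. This range was narrow, and all libraries of SP/CD127-/lo and SP/CD127hi Tregs lay below it (54 ± 13.6 and 70.2 ± 6.96 CPM, adjusted p = 0.958 and 1). Parp14, an ADP-ribosyltransferase with the highest mean CPM of these 5 genes, had 247, 270 and 351 CPM in SP/naive, 168, 231 and 214 CPM in SP/CD127-/lo, 361, 299 and 249 CPM in SP/CD127hi and 282, 449 and 273 CPM in graft Tregs. Parp14 was lower in SP/CD127-/lo than in the other Treg groups of spleen and graft in every library, with adjusted p of 0.778 to 0.859. Zbp1, a nucleic acid sensor, had 108 ± 23.4 CPM in naive CD4+ and 26.5 ± 5.29 CPM in naive CD45+CD4- cells, and 93.4 ± 12.3 and 27.3 ± 28.1 CPM in the tolerant ones (adjusted p = 0.372 and 0.403).

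No member was called between CD127hi and CD127-/lo Tregs of tolerant spleen, but all 5 genes of the immunoproteasome and PA28 had negative and all 3 peptide loading genes positive log2 differences. The GBPs (5 of 6 positive), IRGs (4 of 7) and MHC class I genes (3 of 4) were divided. In 12 members every SP/CD127hi library lay above every SP/CD127-/lo library (6.07% of all genes did), among them Gbp4, Gbp7, Iigp1, Nlrc5, H2-K1, Ifngr1, Irf1 and all 3 peptide loading genes. In 9 members every SP/CD127hi library lay below (4.53% of genes), among them B2m, Gbp5, Tgtp1, Tgtp2 and all 5 genes of the immunoproteasome and PA28. For Psmb8 the values were 338, 293 and 269 CPM in SP/CD127hi and 969, 471 and 458 CPM in SP/CD127-/lo Tregs. For Psme2 they were 840, 623 and 523 CPM and 1966, 1024 and 941 CPM. For Tap1 they were 358, 308 and 390 CPM and 146, 212 and 158 CPM. The log2 differences of these genes were -1.08 ± 0.43, -0.98 ± 0.34 and 1.03 ± 0.52, with adjusted p of 0.525, 0.453 and 0.737. The smallest adjusted p of any member was 0.448, for B2m, which was called lower without the filter on low counts. In the same comparison Cd3g and Cd3d, chains of the T cell receptor complex, were called lower in SP/CD127hi Tregs (1050 ± 242 and 2824 ± 996 CPM for Cd3g, adjusted p = 0.0107). The B cell gene Ms4a1 was called higher, with a mean of 25 ± 34.3 and 0.0839 ± 0.145 CPM. The sum of 6 B cell markers was 1024 to 1263 CPM in SP/CD127hi and 1465 to 1532 CPM in SP/CD127-/lo Tregs, most of it Ighm, and 4 of the 6 were higher in SP/CD127hi Tregs at an unadjusted p under 0.05. All 4 dendritic cell markers were higher in SP/CD127hi Tregs, 3 of them at an unadjusted p under 0.05 and 0 called. Their sum was 19.5 to 57.3 CPM there and 0.586 to 2.83 CPM in SP/CD127-/lo Tregs, where Flt3, Xcr1 and Itgax were at 0 in every library. The part of such cells in the peptide loading and class I differences was not tested.

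Psmb9 and Tap1 sit head to head on chromosome 17. Their RefSeq starts are separated by 225 bases at chr17:34187331-34187555, and neither motif was found in their windows. In SP/CD127hi against SP/CD127-/lo Tregs Psmb9 was lower (178, 167 and 184 CPM against 522, 246 and 282 CPM) and Tap1 higher in every library. In CD4+ against CD45+CD4- cells the order was reversed for both genes and in both spleens, again without overlap. The genes overlap on opposite strands in the annotation and the counts were taken without strand, so reads of their shared stretch cannot be assigned to one of them.

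Exon length moved with the spleen contrast. The 12 members that were higher had a median exon length of 4726 bases and the 9 that were lower one of 2938 bases. The same was seen in all genes at 10 CPM or more, with a median of 5958 bases for 981 genes that were higher without overlap and 2870 bases for 964 that were lower. Over 10 bins of exon length, the median log2 difference of all such genes ran from -0.62 in the shortest to 0.41 in the longest. Relative to the median of its own length bin, the immunoproteasome and PA28 genes were below in 5 of 5 (median -0.59 in place of -0.99). Peptide loading genes were above their bins in 3 of 3 (median 0.72) and MHC class I genes in 4 of 4 (median 0.60), B2m included. The share of read pairs assigned to genes was 53.9 to 63% in SP/CD127-/lo and 44.1 to 49.6% in SP/CD127hi Tregs. The part of exon length and library quality in these differences was not tested. The 15 constitutive proteasome genes had a median of -0.89, with 7 lower at an unadjusted p under 0.05 (3.13% of all genes) and 0 called.

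**Figure D4:**
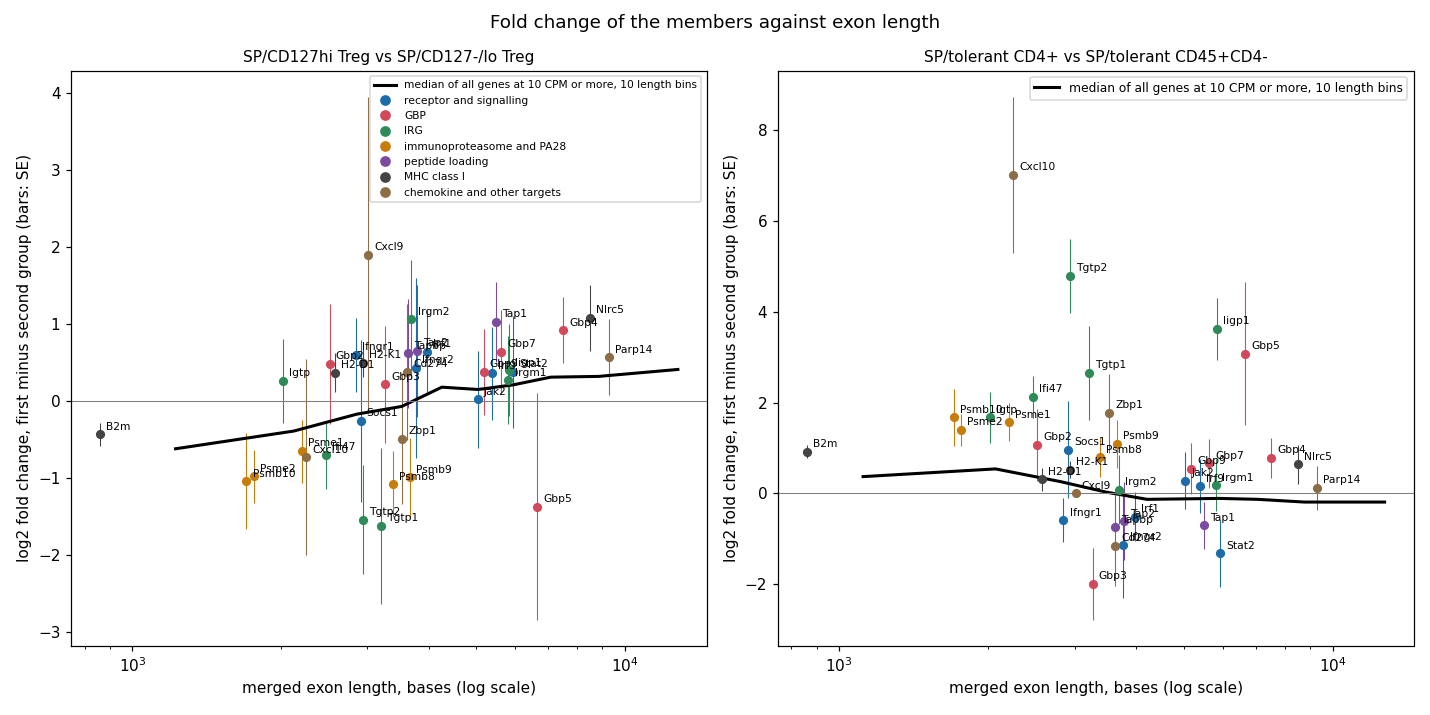
Log2 fold change of the 37 members (y axis, bars SE) against merged exon length in bases (x axis, log scale), coloured by subfamily, for SP/CD127hi against SP/CD127-/lo Tregs (left) and tolerant CD4+ against CD45+CD4- cells (right). The black line, the median of all genes at 10 CPM or more in 10 length bins, runs from -0.62 to 0.41 on the left and from 0.37 to -0.19 on the right, shortest bin to longest.

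In DLN fewer members were without overlap, and so were fewer of all genes (2.26% higher and 3.11% lower). A difference from spleen was not shown. Between DLN/CD127hi and DLN/CD127-/lo Tregs the immunoproteasome and PA28 genes had a median log2 difference of 0.25, with 4 of 5 higher, and the peptide loading genes one of 0.18, with 2 of 3 higher. Gbp4, H2-D1, H2-K1 and Jak2 were higher and Socs1 was lower without overlap, and Gbp4 and H2-K1 had this in spleen too. Cd8a, a CD8 T cell marker, was called higher in DLN/CD127hi Tregs (48.6 ± 82.6 and 0.363 ± 0.629 CPM, adjusted p = 0.013). The part of other cells in these DLN differences was not tested. A test of the difference between the CD127hi effects of spleen and DLN called no member (0.118% of genes were called, smallest adjusted p 0.356 for Psme2). At an unadjusted p under 0.05, the interaction had 4 members (7.82% of genes). The DLN libraries were shallower and Il7r overlapped between their sorts, as given above.

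**Figure D5:**
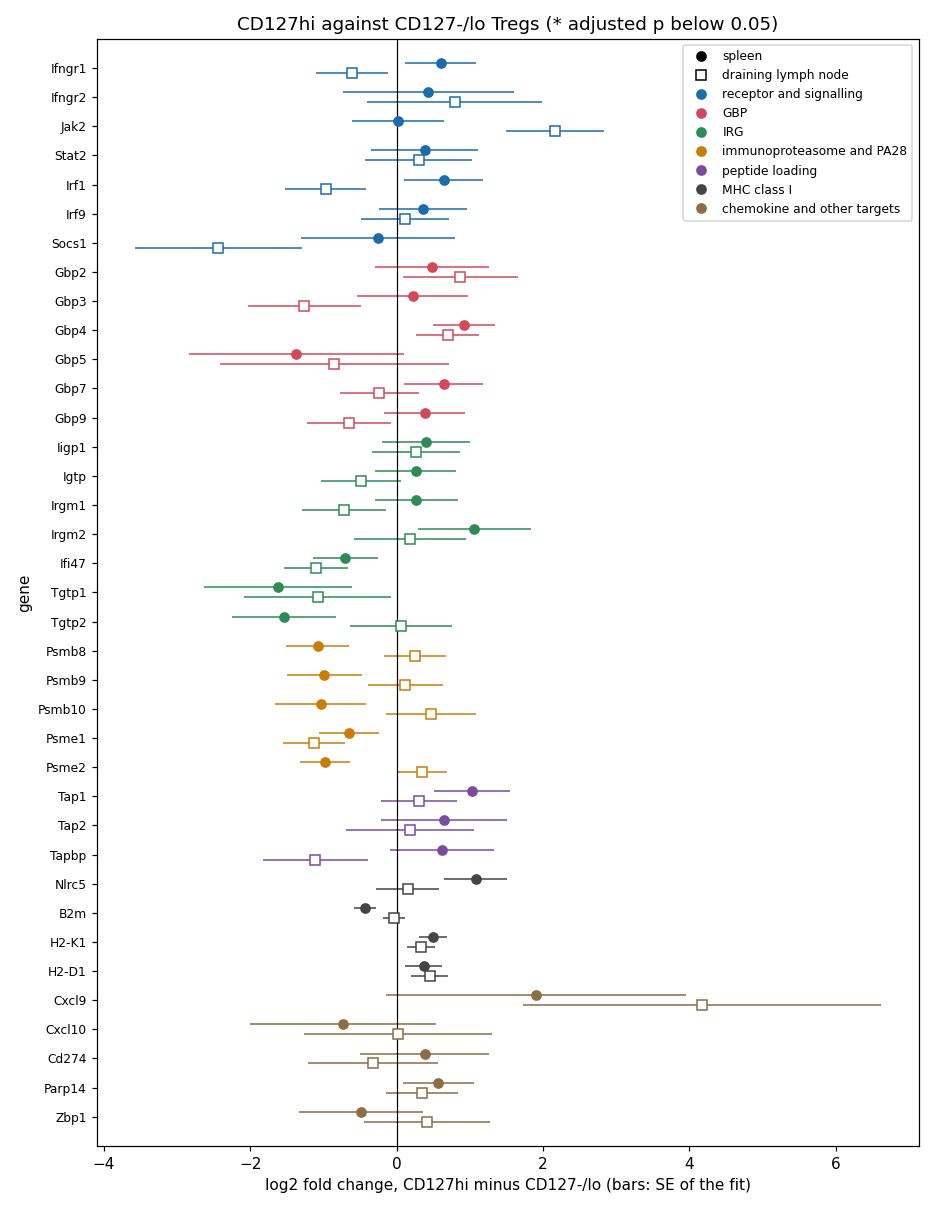
Log2 fold changes of CD127hi over CD127-/lo Tregs (x axis, bars SE of the fit) for the 37 members (y axis, coloured by subfamily), in spleen (filled circles) and DLN (open squares). No member has an adjusted p under 0.05. In spleen the 5 immunoproteasome and PA28 genes lie left of 0 and the 3 peptide loading genes right of it.

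Against naive mice, the Treg groups of tolerant mice had few members that passed the test, and whole subfamilies leaned one way only in some comparisons. In SP/CD127hi against SP/naive Tregs 2 of 5 immunoproteasome and PA28 genes and 2 of 3 peptide loading genes were higher. So were 5 of 6 GBPs, 6 of 7 IRGs and 4 of 4 MHC class I genes. In graft against SP/naive Tregs, 28 of 37 members had a positive log2 difference (36.1% of all genes did), with a median of 0.27 beside 0.00 over all genes. All 7 IRGs (median 0.50) and all 5 immunoproteasome and PA28 genes (0.34) were higher and all 3 peptide loading genes lower (-0.51), and none of these 15 was called. The 15 constitutive proteasome genes had a median of 0.33 there. In 7 members the graft libraries lay above all SP/naive libraries (3% of genes) and in 0 below (5.15%). Among genes at 10 CPM or more, 696 were higher and 779 lower in this way. In SP/CD127-/lo against SP/naive Tregs the 5 immunoproteasome and PA28 genes were all higher (median 0.70, range 0.56 to 1.11), with unadjusted p under 0.05 for Psme2 alone (4 of the 37 members and 5.46% of all genes had this). Peptide loading genes had a median of -0.40, with 2 of 3 lower. Without overlap, 4 members were higher (4.02% of genes) and 6 lower (4.96%), the latter Cd274, Gbp4, Irf1, Nlrc5, Parp14 and Tap1. The constitutive proteasome list had a median of 0.74 there, and the length bins ran from 0.55 in the shortest to -0.42 in the longest.

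In DLN, the median log2 difference over all genes against DLN/naive Tregs was 0.40 for CD127hi and 0.58 for CD127-/lo Tregs. The members had lower medians, 0.05 and 0.10, but the medians of all genes include weakly counted ones. Among genes at 10 CPM or more, 433 were higher and 589 lower without overlap in DLN/CD127hi Tregs. In DLN/CD127-/lo Tregs 416 were higher and 411 lower. Over all genes tested these numbers were 1288 and 659, and 1133 and 473. Gbp4 had 627, 478 and 467 CPM in DLN/CD127hi and 196, 349 and 174 CPM in DLN/naive Tregs (log2 1.13 ± 0.44, adjusted p = 0.259). Parp14 had 436, 425 and 534 CPM and 130, 316 and 244 CPM (adjusted p = 0.444). These were the 2 members without overlap in that comparison (5.08% of genes were higher without overlap). In DLN/CD127-/lo Tregs Igtp, Irgm1 and Psme1 were higher than in DLN/naive Tregs without overlap (4.47% of genes), with adjusted p of 0.458, 0.462 and 0.284. Without DLN/naive replicate 3, the log2 differences were 0.94 ± 0.48 for Gbp4 and 1.06 ± 0.56 for Parp14 in DLN/CD127hi Tregs (adjusted p = 0.549 and 0.578), and 1.10 ± 0.62 for Igtp, 0.97 ± 0.64 for Irgm1 and 1.38 ± 0.47 for Psme1 in DLN/CD127-/lo Tregs (adjusted p = 0.686, 0.686 and 0.224). Against the 2 remaining naive libraries, 4 members were higher and 2 lower without overlap in DLN/CD127hi Tregs (7.29% and 5.15% of all genes), and 6 were higher and 2 lower in DLN/CD127-/lo Tregs (7.03% and 4.47%), these 5 among those higher. Each of the 2 comparisons then called 1 member (0.916% and 0.47% of genes were called), Cxcl10, which had 0 counts in both remaining naive libraries and 76.9 CPM in replicate 3. No fold is given for it. In both comparisons the B cell genes Cd79b, Ighm and Ms4a1 were called higher, and in DLN/CD127hi Tregs also Cd8b1 (54 ± 60.1 CPM and 0). The sum of 6 B cell markers was 953 to 1608 CPM in DLN/CD127hi, 626 to 1422 CPM in DLN/CD127-/lo and 309 to 659 CPM in DLN/naive Tregs, and that of 8 macrophage markers 600 to 880, 102 to 746 and 2.8 to 429 CPM. Their part in the member differences was not tested.

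Between tolerant and naive cells of the same Foxp3- sort no member was called, except that B2m was called higher in tolerant CD45+CD4- cells once naive replicate 3, the library with 12459 CPM, was left out. In CD4+ cells 28 of 37 members had a positive log2 difference (33.7% of all genes did, members' median 0.16, beside -0.23 over all genes), including 6 of 6 GBPs (median 0.61), and none had an unadjusted p under 0.05. Over all genes tested, 1127 were higher and 1313 lower without overlap, but among genes at 10 CPM or more 834 were higher and 625 lower. In the same comparison Il2ra was called higher (19.6 ± 3.77 and 0.674 ± 0.555 CPM). Ms4a1, Gzma and Hbb-bs were called lower. The part of other cells in these differences was not tested. The 3 members without overlap, Gbp2, Gbp4 and H2-D1, were all higher in tolerant CD4+ cells (4.45% of genes). Gbp4, for example, had 459, 533 and 445 CPM in tolerant and 402, 165 and 425 CPM in naive CD4+ cells (log2 0.53 ± 0.43, adjusted p = 0.732). In CD45+CD4- cells the median was -0.11 with 22 of 37 members lower, and the 4 with an unadjusted p under 0.05 (Cxcl10, H2-K1, Nlrc5 and Tgtp2) were all lower in tolerant cells, although with overlap. Cd274, Ifngr2, Jak2, Psmb8 and Stat2 were higher in every tolerant library (3.75% of genes). Of these, Cd274 had 79.3, 96.5 and 73 CPM in tolerant and 36.7, 39.1 and 41.5 CPM in naive CD45+CD4- cells (log2 1.08 ± 0.89, adjusted p = 1). The B cell sums of these groups are given above and did not overlap. The sum of 4 T cell markers was 379 to 545 CPM in tolerant and 576 to 1761 CPM in naive CD45+CD4- cells, and the part of this composition in the differences was not tested.

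Other genes of the pathway were read from lists chosen for these tissues. Of 24 further IFN-γ pathway genes found among 27 listed, 1 was called in graft against SP/naive Tregs, Ciita, the class II transactivator, with 5.95 ± 10.3 CPM in graft and 0 in SP/naive Tregs, where 1 graft library with 17.8 CPM held nearly all of it. In naive CD4+ against CD45+CD4- cells 2 of 24 were called, both lower: Ciita (3.4 ± 4.3 and 238 ± 67 CPM, adjusted p = 0.00199) and Ptpn6, a phosphatase that restrains cytokine receptors (103 ± 17.5 and 475 ± 206 CPM, adjusted p = 0.0131). The same 2 genes were called lower in tolerant CD4+ cells. Of 15 further class I presentation genes, H2-Q7, a non-classical class I heavy chain, was called higher in tolerant CD4+ than CD45+CD4- cells (1057 ± 67.5 and 367 ± 60.1 CPM, adjusted p = 0.00272). No gene of these 2 lists was called in the remaining comparisons.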

How the data were processed

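The deposited files hold raw counts of read pairs per gene, 1 file per library, for 33 libraries in 11 groups of 3, without normalization. Per the labels and the methods, the authors made SMART-Seq v4 libraries, sequenced 75-base pairs, trimmed them with Trim Galore and used STAR to align them to mm10, to which EGFP had been added. Counting is credited to HTSeq in the methods, although the layout is that of STAR's own gene counts. Tool versions are not given in the sources used here. The column without strand was used. Each file opens with 4 totals of unassigned reads, which were kept out of library sizes. The share of read pairs on genes was 30.9 to 63%. The 31054 identifiers were matched to GRCm38 annotation, and 119 had no symbol there.

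A gene was tested if any library had 1 CPM or more (25347 genes). Shares and medians over all genes tested therefore include weakly counted genes, as 13110 genes reached 10 counts in 3 libraries. Counts were scaled by TMM over all libraries and fitted with 1 mean per group in edgeR 4.0.16 (R 4.3.3), with the quasi-likelihood test and Benjamini-Hochberg adjustment over all genes tested. A gene was called at an adjusted p under 0.05. CPM are per TMM-scaled library size, and errors are SD over 3 libraries or SE of the log2 fold change. The smallest p an exact test of 3 against 3 could give is 0.1, so single genes were not tested in that way. There were 13 planned pairwise comparisons and 3 added after seeing the data. Alternatives were DESeq2 1.42.0, edgeR's likelihood ratio test, RLE scaling, no filter, a filter of 10 counts in 3 libraries, a fit of the compared groups only, a replicate block and leaving out each library. Scripts were tested on simulated counts. Tables were handled with Python 3.11.15 and pandas 2.3.3.

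The members and the gene lists were chosen with earlier results of these data known. Library values are given for members called in at least 1 pairwise comparison and for the member of each subfamily with the highest mean CPM, and other members are summarised or serve as examples. Genes of the other lists are named as examples where called, or where they check a label, and not every called one is named. Other library values, such as those of Cd274 and Psmb8, were chosen after their values were seen. Exon lengths are merged exons per gene. Stretches of 75 bases were compared between the transcripts of members and of all other genes.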

Additional observations from a re-analysis of the deposited data

How the results depend on the processing

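Numbers of called members were recomputed for 19 results, and no named member changed direction where it was called. With the likelihood ratio test, SP/naive Tregs had 0 in both the graft and the SP/CD127-/lo comparison, the 4 Treg groups had 1, tolerant CD4+ against CD45+CD4- cells had 3 and SP/CD127-/lo Tregs against tolerant CD4+ cells had 0. With RLE scaling, graft against SP/naive Tregs and SP/CD127hi Tregs against tolerant CD4+ cells had 2 each. Without a filter, graft against SP/naive Tregs had 2, SP/CD127hi against SP/CD127-/lo Tregs had 1, SP/CD127hi against SP/naive Tregs had 1 and SP/CD127hi Tregs against tolerant CD4+ cells had 2. With the stricter filter, DLN/CD127hi against DLN/CD127-/lo Tregs had 1 and 5 results had 0: SP/CD127-/lo against SP/naive Tregs, SP/naive Tregs against naive CD4+ cells, the 4 Treg groups, and SP/CD127-/lo or SP/CD127hi Tregs against tolerant CD4+ cells. With only the compared groups fitted, SP/CD127-/lo against SP/naive Tregs had 0, SP/naive Tregs against naive CD4+ cells had 2, the 4 Treg groups had 1, tolerant CD4+ against CD45+CD4- cells had 12, and SP/CD127-/lo and SP/CD127hi Tregs against tolerant CD4+ cells had 4 and 5. With DESeq2, graft against SP/CD127hi and SP/CD127-/lo Tregs had 1 each (Gbp5, Ifngr1), SP/CD127-/lo against SP/naive Tregs had 0, DLN/CD127hi against DLN/CD127-/lo Tregs had 2, DLN/CD127hi and DLN/CD127-/lo against DLN/naive Tregs had 2 and 1, tolerant against naive CD4+ and CD45+CD4- cells had 1 each (Cxcl9), the 4 Treg groups had 1 and SP/CD127hi Tregs against tolerant CD4+ cells had 3. Several of these settings also called more genes in all: where counts shifted, the share of all genes called was 0.15 to 3.78% with DESeq2, 0.0629 to 11.6% with only the compared groups (11.6% for tolerant CD4+ against CD45+CD4- cells, 2.48 and 2.14% for the SP/CD127-/lo and SP/CD127hi Tregs) and at most 1.81% otherwise. The cause of these shifts was not tested, beside the smaller number of genes or libraries that the filter and the narrower fits hold.

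Replicate numbers are shared between groups, but they did not pair the libraries: over 48 pairs the correlation of deviations from group means was -0.113 to 0.149, and in 0 of 16 comparisons were all 3 pairs over 0.1. With a replicate block, graft against SP/naive Tregs had 2, SP/CD127hi against SP/CD127-/lo Tregs 1, SP/CD127hi against SP/naive Tregs 1 (B2m in all 3) and SP/CD127hi Tregs against tolerant CD4+ cells 4 called members, and the other 15 results stayed within 1.5 times their count.

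Leaving out 1 library at a time gave 0 to 2 called members in graft against SP/naive Tregs, 0 to 1 in SP/CD127hi against SP/naive Tregs, in each of the 3 DLN comparisons, in tolerant against naive CD45+CD4- cells, in SP/naive Tregs against naive CD4+ cells, in SP/CD127hi Tregs against tolerant CD4+ cells and in the interaction of spleen and DLN. It gave 1 to 2 in SP/CD127-/lo Tregs against tolerant CD4+ cells, 2 to 5 in naive and 4 to 7 in tolerant CD4+ against CD45+CD4- cells, and 12 to 16 over the 8 groups. The share of all genes called is given only for the fits without DLN/naive replicate 3, above. The other counts cannot be set against such a share. Libraries that moved a pairwise or interaction count by over 1.5 times were SP/naive Treg replicates 1 and 2, graft replicates 1 and 3, DLN/CD127-/lo replicate 3 (Jak2, Psmb10 or B2m then called), DLN/naive replicate 3, naive CD4+ replicates 2 and 3, naive CD45+CD4- replicate 3, tolerant CD4+ replicates 1 and 3 and SP/CD127-/lo replicate 2.

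Depth limits the low members most. In DLN libraries 3 counts are 1.55 to 3.55 CPM, and Cxcl9 and Gbp5 lay under this in several of them. The median SE of a member's log2 fold change was 0.60 in most comparisons.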
